A study of Mus musculus with 94 samples.

Results

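The cytosolic ribosomal protein genes of mouse were followed across single basophils of the bone marrow. Members were the genes whose symbols are Rpl or Rps with a number (and the forms ending in a or x), together with Rplp0, Rplp1, Rplp2 and Rpsa, and pseudogenes were left out. This rule gave 76 of the 46078 mouse gene identifiers in the count table, 46 of the large and 30 of the small ribosomal subunit. Each of the 76 had reads in at least 10 cells and so passed the filter on low values. The rule uses symbols only and no measured value, though it was set with earlier results of these data known. Counts and sums below are over all 76, and 73 are described singly or drawn.

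The ribosome is built from a large and a small subunit, each an RNA core carrying many small proteins, and a complete particle needs its proteins in nearly equal numbers. Vertebrate ribosomal protein mRNAs begin with a run of C and T bases, the terminal oligopyrimidine or TOP tract, through which their translation is coupled to nutrient and growth signals by the mTOR kinase. They are among the most abundant and most evenly expressed mRNAs of a dividing cell. Their short spliced mRNAs have been copied back into the genome many times, which leaves processed pseudogenes that resemble the parent mRNA closely. In blood formation, loss of single ribosomal protein genes such as Rps19 or Rps14 is known to impair the erythroid lineage.

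All cells were live lineage-negative, Sca1-negative, FcεRI-positive cells from the marrow of female C57BL/6 mice with no transgene named, and the labels give no age or treatment. A surface gate on CD34, a glycoprotein of stem and progenitor cells, separated 47 CD34-negative from 47 CD34-positive cells, of which 46 per gate passed the cell filter. The design names 3 mice but ties no cell to a mouse, so each gate is 1 sample, no difference between the gates has a replicate check, and no test was run. The polyadenylated RNA of each cell was amplified with ERCC spike-in RNA in the same well and read as 50-base single reads.

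The kept cells held 262944 to 938322 gene reads in the CD34-negative gate and 374011 to 1154738 in the CD34-positive gate. The 13 basophil marker genes, led by the granule proteases Prss34 and Mcpt8, had reads in both gates and made up 4.92% and 9.98% of gene reads. Prss34, Mcpt8 and Cpa3 were higher by 2-fold in the CD34-positive gate, while 8 of the 13 were lower, 5 of them by 2-fold (Cd200r3, Itga2, Il4, Hdc and Csf1), and the median log2 fold was -0.47. Of 8 mast cell markers found in the table, 1 CD34-negative read was counted, and the 220 CD34-positive reads reached at most 285 CPM (counts per 1000000 gene reads) in a cell, with Mcpt1, Mcpt2, Mrgprb1 and Mrgprb2 at 0. The 6 monocyte and dendritic cell markers ranged from 0 to 2388 CPM over CD34-negative cells and from 0 to 813 CPM over CD34-positive cells, with medians of 295 and 1.68 CPM and sums of 511 and 48.0 CPM, carried mostly by Ccr2. The 10 progenitor markers, among them Mpo, Ctsg, Kit and Cd34 itself, on which the gate was set, went the other way, with medians of 1221 CPM in cells from 8.23 to 5594 and of 8065 CPM in cells from 761 to 23073. CD34-negative cell 10, the cell with 2388 CPM of monocyte and dendritic cell markers, had 240 CPM of basophil markers, the lowest of its gate. The next lowest CD34-negative cell, cell 18, had 10865 CPM of basophil markers. The part of these lists in the results below was not tested.

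How much of a ribosomal protein mRNA a 50-base read can assign to its gene differs greatly between members, so the sequences come first. For each member, every 50-base window of its coding sequence was looked up in all other transcripts of the GENCODE M21 annotation, on both strands and with exact matches only. A window found in no other annotated gene is called the member's own. Rps3 had 91.9% own windows, Rpl8 91.3% and Rpl4 79.7%, while 29 of the 76 members had none. Genome copies that carry no annotation were not searched, so these shares of coding windows are upper limits. Windows outside the coding sequence, where reads can also fall, are not part of them. The following windows show the contrast. Each is the middle 50 bases of the coding sequence, on the coding strand, from GENCODE M21 transcripts of the GRCm38 build, for 3 members with high own shares and for 2 members without own windows.

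Rps3: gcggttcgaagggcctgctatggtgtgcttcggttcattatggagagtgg
Rpl8: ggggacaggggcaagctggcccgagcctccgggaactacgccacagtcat
Rpl4: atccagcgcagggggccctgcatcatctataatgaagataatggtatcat
Rpl21: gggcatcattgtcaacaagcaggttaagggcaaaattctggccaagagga
Rps12: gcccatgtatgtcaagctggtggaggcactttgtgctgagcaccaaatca

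The Rps3 window covers coding bases 340 to 389 of 729 (gene at chr7:99477896-99483738, minus strand). The Rpl8 window (chr15:76904078-76906314, plus strand) covers bases 361 to 410 of 771, and the Rpl4 window (chr9:64173375-64178666, plus strand) bases 604 to 653 of 1257. None of these 3 was found in another annotated gene. The Rpl21 window (chr5:146832890-146837032) was found in 27 other genes and the Rps12 window (chr10:23785183-23787275) in 9.

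A parent and a named pseudogene can be told apart by single bases only. Rpl14 (chr9:120571444-120574654) and Rpl14-ps1 (chr7:45324965-45325617) share 644 of 648 aligned coding bases, or 99.4%. The 60 bases below are coding bases 364 to 423 of Rpl14 and the matching stretch of the pseudogene, and capitals mark the 2 bases that differ.

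Rpl14: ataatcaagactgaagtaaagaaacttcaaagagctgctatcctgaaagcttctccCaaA
Rpl14-ps1: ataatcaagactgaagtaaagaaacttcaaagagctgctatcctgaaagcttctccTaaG

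In the count table Rpl14-ps1 held 17182 reads over both gates and Rpl14 9099. Rps16-ps2 (8491 reads against 4350 for Rps16), Rps13-ps2 (5368 against 674) and Rpl3-ps1 (5701 against 3451) also exceeded their parents, as did Rpl19-ps11 (2146 against 419), Rpl9-ps6 (1986 against 950) and Rpl9-ps7 (1735 against 950). In all, 15 named pseudogenes of 13 members had more reads than their parent. The parents of these pseudogenes have therefore to be read as uncertain.

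The levels of the members spanned a wide range and went together with the share of own windows. Each level divides all reads of a gene, those outside the coding sequence included, by its coding length. A short coding sequence therefore raises the level. Per coding kb, the highest of the 73 members described here was Rps3, a small subunit protein beside the mRNA entry, at 1216 CPM per coding kb in the CD34-negative gate and 1452 among CD34-positive cells. In the CD34-negative gate the next were Rps14 (794) and Rpl8 (787), and in the CD34-positive gate Rpl8 (1217), Rpl4 (973) and Rpl39 (934). At the low end stood Rpl23a at 3.71 CPM per coding kb in CD34-negative cells, Rpl24 at 3.87, Rps28 at 4.04, Rpl19 at 6.92 and Rpl31 at 6.94. In CD34-positive cells the lowest were Rpl24 (3.04), Rpl23a (6.05), Rps6 (8.20), Rps28 (11.4) and Rpl17 (13.1).

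**Figure D1:**
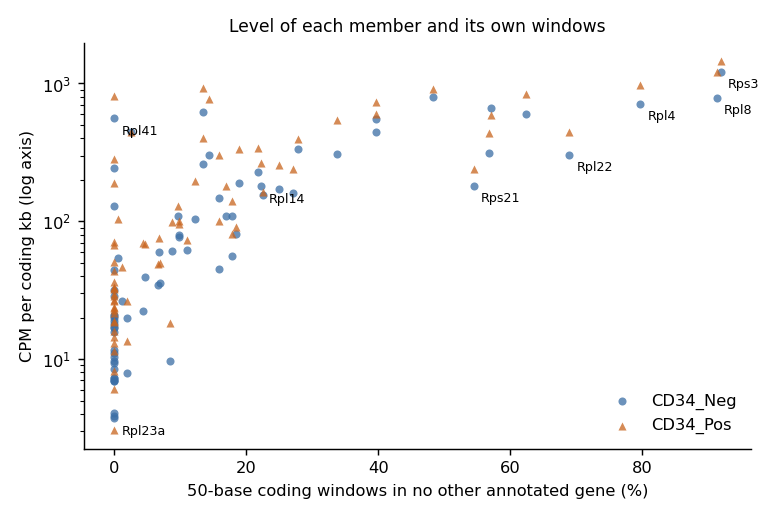
The level of 73 members in CPM per coding kb (log axis) against the percent of their 50-base coding windows found in no other annotated gene, as circles for CD34-negative and triangles for CD34-positive cells. Members without own windows have medians of 15.7 and 26.2 CPM per coding kb, and Rps3 with 91.9% own windows is the highest of those drawn.

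The 29 members without an own window had a median of 15.7 CPM per coding kb in the CD34-negative gate and 26.2 in the CD34-positive gate. The 10 members with at least 50% own windows (among them Rps3, Rpl8, Rpl4, Rpl22, Rpl32, Rps9, Rps15 and Rps21) had medians of 686 and 781. The 15 members above 0 and under 10% had 39.7 and 70.1, and the 22 members from 10% to under 50% had 176 and 284 CPM per coding kb. These classes were drawn after the values were seen. Across the 76 members, Spearman's rho of the level with the own share was 0.82 for CD34-negative and 0.81 for CD34-positive levels, as a description over genes of the same libraries. The order of levels was nearly the same in both gates, with a rho of 0.97. The best-resolved 10 members held 59.8% of the members' reads in CD34-negative cells and 56.9% in CD34-positive cells. The 29 without an own coding window held 4.0% and 4.83%. Whether sharing sets the levels was not tested. Rpl41, with a coding sequence of 75 bases and no own window, stood apart from its class at 559 and 813 CPM per coding kb. The part of its short coding length in this was not tested.

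Together the 76 members made up a small share of each cell's gene reads. Over the 46 CD34-negative cells the share ran from 0.513% (cell 36) to 2.19% (cell 45), with a median of 0.762% and an SD over cells of 0.291. Over the 46 CD34-positive cells it ran from 0.264% (cell 2) to 2.08% (cell 7), with a median of 1.06% and an SD of 0.415. The medians lay 1.40-fold apart, a log2 ratio of 0.48, and the gates overlapped widely. Of the CD34-positive cells, 38 of 46 lay above the CD34-negative median, none lay above the highest CD34-negative cell, and 2 lay below the lowest. The CD34-negative gate had 1 cell far above the others, cell 45, followed by cell 33 at 1.58% and cell 31 at 1.41%. Cell 45 also had the highest mitochondrial share of gene reads in its gate, 4.95% where the median was 1.63%, and the highest share of ambiguous among gene and ambiguous reads, 33.2% where the median was 17.2%. At the low end of the CD34-positive gate, cells 2 and 46 (0.399%) stood under every CD34-negative cell. The median mitochondrial share was 2.23% in the CD34-positive gate. Spearman's rho of the member share with it was 0.35 (r 0.26) over 46 CD34-positive and 0.32 (r 0.57) over 46 CD34-negative cells. Without the 2 farthest cells of each gate these were 0.33 (r 0.20) and 0.31 (r 0.27). In the CD34-negative gate these were cells 45 and 39, left out only together. Cell 39 had a mitochondrial share of 3.62% but a member share of 0.708%, under the gate median. The part of RNA quality in the member share was not tested.

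**Figure D2:**
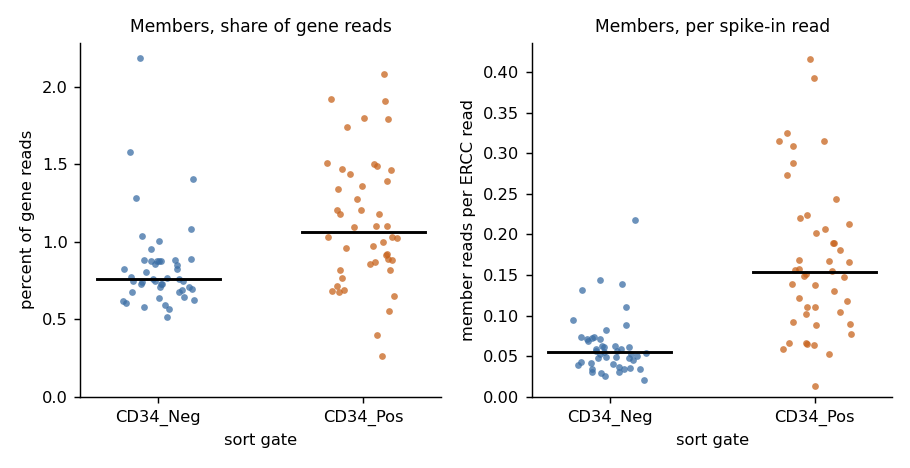
Left, the members' reads as percent of gene reads in each kept cell; right, the members' reads per ERCC spike-in read, with 46 cells per sort gate and a bar at the median. The CD34-positive medians are 1.06% against 0.762% on the left and 0.153 against 0.0547 on the right.

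Set against the spike-in, the gates were further apart. The members had a median of 0.0547 reads per ERCC read in CD34-negative cells (range 0.0211 to 0.217) and 0.153 in CD34-positive cells (0.0128 to 0.416), a log2 ratio of 1.49. In 44 of 46 CD34-positive cells the value exceeded the CD34-negative median, and in 11 it exceeded the highest CD34-negative cell. All gene reads together differed in the same direction, with medians of 6.87 and 14.4 gene reads per ERCC read and a log2 ratio of 1.07. Per ERCC read the members' medians were thus further apart than those of all gene reads. CD34-negative cell 45, the highest by share, had 2.81 gene reads per ERCC read, the second lowest of its gate.

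Other features of the cells differed between the gates as well. The granule protease genes held 3.46% of CD34-negative and 9.57% of CD34-positive gene reads, and with their reads left out of the total the median member shares were 0.773% and 1.20%. The 25 genes of the G2/M list ranged from 0 to 12268 CPM over CD34-negative cells (median 63.4) and from 1.16 to 19176 CPM over CD34-positive cells (median 377). The S phase list had medians of 840 and 2373 CPM. The part of cell cycle, protease content and RNA amount in the difference was not tested.

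Gene by gene, the members were mostly higher in the CD34-positive gate by modest amounts. Log2 folds are the log2 ratio of summed CPM, CD34-positive over CD34-negative, after adding 1 CPM to both. On gene reads 69 of the 76 members were higher, against a background of 58.9% of the 12460 genes with reads in at least 10 cells. The median member log2 fold was 0.54, against 0.19 for all these genes. Only 13 of 76, or 17.1%, reached a log2 fold of 1, where the background was 21.7%, and 0 of 76 reached -1, where it was 10.1%. On gene reads the members' median was thus shifted by less than 2-fold. Their middle 50% ran from 0.32 to 0.80, against -0.40 to 0.86 for all these genes, which were not matched to the members for level. With a pseudocount of 10 CPM, 4 of 76 members and 11.2% of all these genes reached a log2 fold of 1. The part of level in the narrower spread of the members was not tested. Exact Poisson 95% intervals on the reads, set bound against bound, lay above 0 for 65 members, below 0 for 3 and across 0 for 8. Of all 12460 genes, 48.1% had an interval above 0 and 32.3% one below. They cover counting error only, because amplified reads are not independent molecules. The cells of both gates overlapped for every member, as they did for all 12460 genes (0% without overlap).

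**Figure D3:**
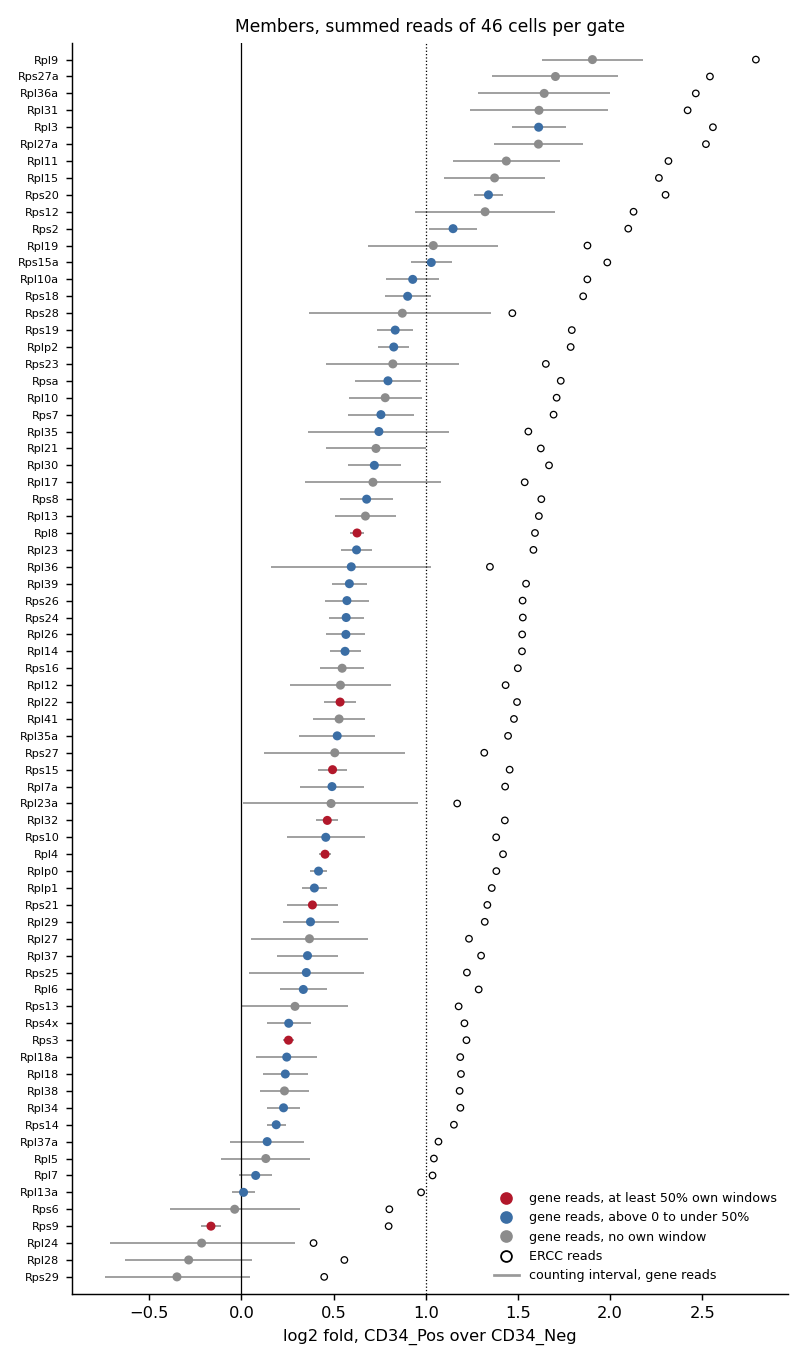
Log2 folds of 73 members, CD34-positive over CD34-negative, from the summed reads of 46 cells per gate; filled points are scaled to gene reads with their counting intervals as lines, open circles to ERCC reads. Filled points run from -0.35 (Rps29) to 1.90 (Rpl9), and the open circles all lie above 0.

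Scaled to ERCC reads, all 76 members were higher in the CD34-positive gate, where the background was 87.6%. A log2 fold of 1 was reached by 68 of 76, or 89.5%, against a background of 51.8%, and -1 by none, against 2.25%. The median was 1.46 for members and 1.04 for all genes. With scran size factors the medians were 0.32 and 0.00, and with TMM factors 0.34 and 0.02, so the members lay 0.32 above all genes in both, and 0.34 above on gene reads. When each gene was summed without its top cell, the cell that gave it the most reads, the medians were 0.55 and 0.35 and the distance was 0.19.

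Large and small subunit members were counted separately, and the difference between them was not tested. Of 46 large subunit genes, 44 were higher, 8 by at least 2-fold, with a median log2 fold of 0.54. Of 30 small subunit genes, 25 were higher, 5 by at least 2-fold, with a median of 0.53. Of all 12460 genes, 58.9% were higher and 21.7% by at least 2-fold, with a median of 0.19. The summed reads of each subunit gave log2 folds of 0.49 and 0.37. By own windows the medians were 0.67 for the 29 members with none, 0.49 and 0.57 for the classes between, and 0.46 for the 10 best resolved. Among these 10 no log2 fold passed 0.63, and 9 of the 13 members higher by 2-fold had no own window at all.

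The best-resolved members give the firmest values. Rpl8, which packs against the peptidyl transferase centre of the large subunit, had CD34-negative cells from 0 to 1422 CPM with a median of 582, and CD34-positive cells from 6.99 to 2354 with a median of 867. The ranges overlapped widely, and 36 of 46 CD34-positive cells lay above the CD34-negative median. Its log2 fold of 0.63 (0.59 to 0.66) was the highest of the 10. Rpl4, which lines the tunnel through which the new peptide leaves, had medians of 835 and 1072 CPM in cells from 231 to 1837 and from 44.3 to 2467, and a log2 fold of 0.45. Rps3 had medians of 771 and 976 CPM in cells from 189 to 2428 and from 74.6 to 2252, with a log2 fold of 0.26.

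In contrast, Rps9, a core protein of the small subunit, was lower on gene reads in the CD34-positive gate. Its medians were 361 and 330 CPM in cells from 70.3 to 1500 and from 88.6 to 697, and 20 of 46 CD34-positive cells lay above the CD34-negative median. Its log2 fold was -0.17 (-0.22 to -0.11). CD34-negative cell 45 gave Rps9 the most reads, and without it the log2 fold was -0.07. In cells numbered 7 to 42 alone the log2 fold was 0.0022, with the sign turned. Scaled to ERCC reads, Rps9 was at 0.80, higher in the CD34-positive gate.

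**Figure D4:**
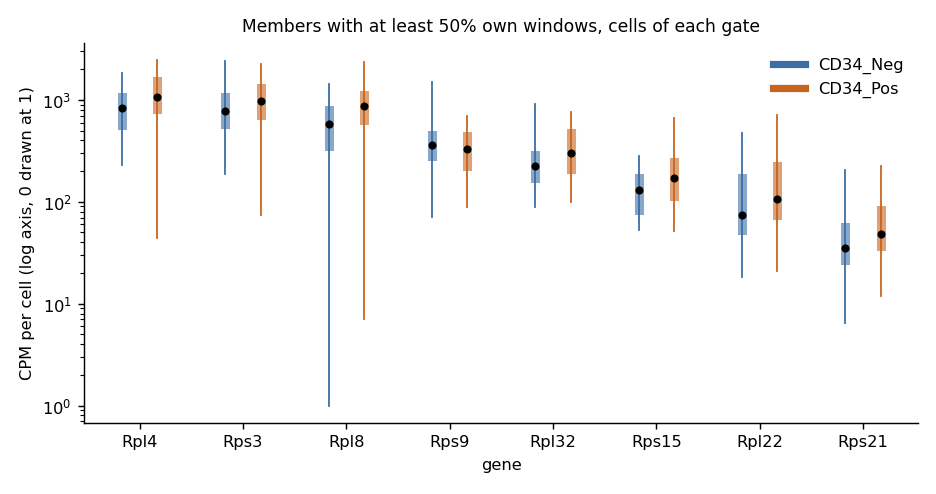
CPM per cell (log axis, cells at 0 drawn at 1) of 8 members with at least 50% own windows, with a line from the lowest to the highest cell, a thick bar over the middle 50% of cells and a dot at the median, for 46 cells per gate. CD34-positive medians are above CD34-negative medians for 7 of the 8 and below for Rps9.

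Among the members higher by 2-fold, Rps20 and Rpl3 rested on many cells. Rps20 (ENSMUSG00000028234), a small subunit head protein with 14.3% own windows, had CD34-negative cells from 0 to 386 CPM with a median of 90.0, and CD34-positive cells from 39.2 to 885 with a median of 263. In 45 of 46 CD34-positive cells it lay above the CD34-negative median, more often than any other member, and its log2 fold was 1.34 (1.26 to 1.42). Rpl3, which reaches toward the peptidyl transferase centre, had CD34-negative cells from 0 to 308 CPM with a median of 14.9, and CD34-positive cells from 0 to 413 with a median of 59.5. Its log2 fold was 1.61 (1.47 to 1.76), with 43 of 46 CD34-positive cells above the CD34-negative median. Rpl3 has 4.31% own windows, and Rpl3-ps1 also had more reads in the CD34-positive gate, with a log2 fold of 1.21. Rps2 stood at 1.15, and Rps15a, with median levels of 53.4 CPM and 108 CPM, at 1.03.

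The highest log2 folds belonged to members with few reads and no own window. Rpl9 (ENSMUSG00000047215), a large subunit protein near the base of the stalk, had 199 reads in CD34-negative and 751 in CD34-positive cells, with a log2 fold of 1.90 (1.63 to 2.18). Its CD34-negative cells ran from 0 to 299 CPM with a median of 0 and its CD34-positive cells from 0 to 232 with a median of 1.42, so that both gates had many cells without a read. CD34-negative cell 40 held 18.8% of its reads, and without it the log2 fold was 4.01. With the reads of its named pseudogenes added, of which Rpl9-ps6 and Rpl9-ps7 stood at 0.20 and 0.10, the log2 fold of Rpl9 was 0.43. Rps27a, which is made as a fusion with ubiquitin, had a log2 fold of 1.70 (1.36 to 2.04), in cells from 0 to 86.2 CPM (median 0) and from 0 to 111 CPM (median 2.84). Rpl36a stood at 1.64 with medians of 1.37 and 3.26 CPM, and Rpl31, near the mouth of the exit tunnel, at 1.61 with medians of 1.17 and 6.14 CPM. For Rps27a, Rpl36a and Rpl31, the log2 folds without the top cell were 1.34, 1.37 and 1.38. Rpl27a (1.61, and 1.08 without CD34-positive cell 1), Rpl11 (1.44), Rpl15 (1.37), Rps12 (1.32) and Rpl19 (1.04) complete the 13. Rpl11 binds the 5S RNA together with Rpl5, and Rpl5 itself stood at 0.13 with an interval across 0. Rpl15 moved to 2.74 without CD34-negative cell 26, which held 20.0% of its reads, and Rpl19 to 0.72 without CD34-positive cell 25. With named pseudogene reads added, 9 members in place of 13 reached 2-fold. Rpl9, Rpl19 (0.25), Rps2 (0.59) and Rps15a (0.93) then stood below it, and Rpl19-ps11 itself had a log2 fold of 0.10.

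The lowest log2 folds were as thinly based. Rps29 (ENSMUSG00000034892), a small zinc-binding protein of the small subunit, had 178 reads in CD34-negative and 119 in CD34-positive cells, in cells from 0 to 67.8 CPM (median 1.14) and from 0 to 29.4 CPM (median 1.82). Its log2 fold was -0.35 (-0.74 to 0.04), and 0.06 without CD34-negative cell 14. Rpl28 stood at -0.29 and Rpl24 at -0.22, both with intervals across 0. They moved to 0.68 and 0.03 without their top cells, which were CD34-negative cells 21 and 26. Rps6, the small subunit protein that S6 kinase phosphorylates, had 211 and 184 reads and a log2 fold of -0.04, with 0.38 without CD34-negative cell 7. Of these 5 members lower on gene reads, Rps9 included, Rps9 alone kept that sign without the top cell, though not in cells numbered 7 to 42.

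Within the members' own reads the same genes stood at the ends. As a share of all member reads, 49 of the 76 were higher and 27 lower in the CD34-positive gate. The log2 ratio of shares was highest for Rpl9 (1.64), Rps27a (1.53), Rpl31 (1.51), Rpl36a (1.5) and Rpl27a (1.28), and among the lowest were Rps29 (-0.86), Rpl24 (-0.78), Rpl28 (-0.76) and Rps9 (-0.60). Rpl4 made up 10.7% of CD34-negative and 10.8% of CD34-positive member reads, and Rps3 10.6% and 9.36%.

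The acidic stalk proteins, which recruit the elongation factors, were all higher. Rplp0 had a log2 fold of 0.42 (0.37 to 0.46), with medians of 391 and 493 CPM in cells from 50.6 to 1254 and from 67.6 to 1260. Rplp1 stood at 0.40. Rplp2 stood at 0.83 (0.74 to 0.91), with medians of 87.3 and 158 CPM with highest cells of 382 and 692. Rpsa, which is also known as a laminin receptor, stood at 0.79, and Rps19, whose human counterpart is the gene most often altered in Diamond-Blackfan anaemia, at 0.83 with a counting interval of 0.74 to 0.93. In the ordering by cells, Rplp2 lay above the CD34-negative median in 41 and Rps19 in 40 of 46 CD34-positive cells.

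Detection was compared at 200000 gene reads drawn from each cell. CD34-negative cells then had a read in 47 to 64 of the 76 members, with a median of 55, and CD34-positive cells in 46 to 72, with a median of 62. The difference of 7 exceeded the SD over cells, which was 3.78 and 4.70. Without drawing, the medians were 63.5 and 68. A read was found in every cell for 27 members in the CD34-negative gate and 32 in the CD34-positive gate, and 42 members were found in more CD34-positive cells, 7 in fewer and 27 in as many. Of the 12460 genes tested, 81.2% were found in more CD34-positive cells, 13.4% in fewer and 5.4% in as many, and cells had a read in a median of 4527 and 6522.5 genes at this depth. More genes of any kind were thus found in CD34-positive cells, and the members' counts are not a result about the members. The widest gaps were those of Rpl31, found in 12 and 29 cells, Rps12, in 11 and 26, Rps27a, in 9 and 23, and Rpl27, in 7 and 21.

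The members varied together from cell to cell. Among the members with a read in every cell, the median pairwise Pearson r of log2(CPM + 1) was 0.27 over the 46 CD34-negative cells (34 genes) and 0.49 over the 46 CD34-positive cells (44 genes). For all genes with a read in every cell the medians were 0.03 (351 genes) and 0.02 (612 genes). Over all 76 members, of which many have reads in few cells, the medians were 0.10 and 0.27, and for the 10 best resolved 0.26 and 0.56. These values share libraries, depth and the total they are divided by, and whether the gates differ in them was not tested. In CD34-positive cells Rps19 was among those that followed the sum of the other members most closely (Spearman's rho 0.86), with Rps9 (0.85), Rpl32 (0.84) and Rplp2 (0.84). In CD34-negative cells the closest were Rpl23 (0.62) and Rplp1 (0.60). Rpl32 and Rps15, both well resolved, had an r of 0.74 in CD34-positive cells. Rps21 and Rpl4 had the lowest r there among the 10 best resolved, -0.13.

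**Figure D5:**
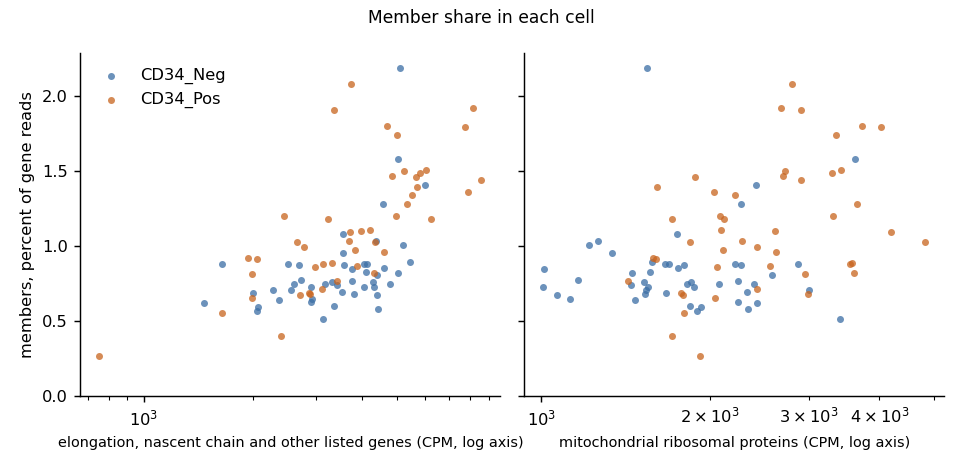
The members' percent of gene reads in each kept cell against the summed CPM of 14 elongation factors, nascent chain factors and other listed genes (left, log axis) and of 78 mitochondrial ribosomal proteins (right, log axis), 46 cells per gate. In CD34-positive cells Spearman's rho is 0.75 on the left and 0.40 on the right.

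The member share was compared with other translation genes cell by cell. A first list of 14 genes held elongation factors (such as Eef1a1 and Eef2), nascent chain factors (Naca and Btf3) and others linked to translation or known for TOP mRNAs (Pabpc1, Pabpc4, Hnrnpa1, Npm1, Nap1l1 and Tpt1). In CD34-positive cells rho with these 14 genes was 0.75 (Pearson r 0.69), and 0.74 without the cells 45 and 41 farthest from the median. In CD34-negative cells it was 0.51 (r 0.52), and 0.46 without cells 31 and 10. With the mitochondrial ribosomal proteins rho was 0.40 (r 0.36) in CD34-positive and -0.07 (r 0.08) in CD34-negative cells, and 0.43 and -0.08 without the 2 farthest cells of each gate. For the other lists the values for CD34-positive and CD34-negative cells were 0.46 (r 0.42) and 0.21 (r 0.04) with RNA polymerase I and assembly genes, and 0.35 (r 0.39) and 0.18 (r 0.25) with initiation factors. With the genes that control TOP mRNAs they were 0.02 (r -0.03) and 0.18 (r 0.05), and with the chaperones 0.17 (r 0.14) and 0.04 (r 0.05). Without the 2 farthest cells these 4 lists gave rho values of 0.45, 0.32, 0.06 and 0.23 in CD34-positive and 0.17, 0.13, 0.18 and 0.09 in CD34-negative cells. With Eef1a1 alone, the factor that brings aminoacyl-tRNA to the ribosome, it was 0.64 (r 0.60) and 0.45 (r 0.60). Without the farthest cells this was 0.62 (r 0.54) and 0.37 (r 0.29), so that the CD34-negative r rested largely on cells 45 and 31. With Actb, the cytoplasmic actin gene, rho was -0.55 (r -0.55) and -0.03 (r -0.12), and -0.50 and -0.10 without the farthest cells. With the G2/M list it was -0.34 (r -0.37) and -0.44 (r -0.20), and -0.24 and -0.37 without them. With the progenitor markers it was 0.37 (r 0.31) and -0.28 (r -0.14), and 0.34 and -0.20 without them. Both sides of each of these relations are shares of the same gene reads. Neither the difference between the gates nor that between the lists was tested.

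The proteins of the cytosolic ribosome that the symbol rule leaves out mostly had the same sign. Rack1, a scaffold on the small subunit, was nearly as abundant as the highest members at 678 and 1107 CPM, with a log2 fold of 0.71. Rps3a1 stood at 0.30, Fau, fused to a ubiquitin-like protein, at -0.10 with an interval across 0, and Rps27rt at -0.12, likewise across 0. Among the paralogues, Rpl22l1 stood at 1.08 where Rpl22 stood at 0.54, Rpl36al at 0.99 where Rpl36a stood at 1.64, Rpl7l1 at 0.60 where Rpl7 stood at 0.08, and Rps27l at 1.64 where Rps27 stood at 0.51. Rps4l had 20 and 382 reads in 3 and 10 cells, a log2 fold of 3.10. Rpl39l had 0 and 1 reads and Rpl10l 1 and 0, and Rpl3l had 26 reads in 1 CD34-positive cell.

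Other genes of translation and ribosome assembly were described by the same counts. The background over all 12460 genes was 58.9% higher and 21.7% by 2-fold, with a median log2 fold of 0.19. Of the 14 genes of the list with elongation factors, 13 were higher and 5 by 2-fold, with a median log2 fold of 0.42. Eef1a1 stood at 0.07 and Eef2, which moves the ribosome along the mRNA, at 0.03. The highest were not elongation factors but Pabpc4 (2.17), a poly(A)-binding protein, and Hnrnpa1 (1.35), an RNA-binding protein of the nucleus, and Naca was the lowest at -0.04. Of 28 initiation factors, 21 were higher and 5 by 2-fold, with a median of 0.22, from Eif4b (-0.59) and Eif5 (-0.43) to Eif3a (1.56) and the cap-binding protein Eif4e (1.81). Of 12 genes that control TOP mRNAs, 10 were higher and 3 by 2-fold, with a median of 0.48. Larp1, which binds the TOP tract, stood at 1.38, Tia1 at 1.83 and Rps6kb1 at 1.53, while Rps6kb2 (-0.51) and Rheb (-0.12) were the lowest.

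Of 36 genes of RNA polymerase I and ribosome assembly, 29 were higher and 17 by 2-fold, with a median log2 fold of 0.90. The highest were Polr1b (4.39), a catalytic subunit of RNA polymerase I with 13 reads in 4 CD34-negative cells and 847 reads in 20 CD34-positive cells, and Dkc1 (3.24), the pseudouridine synthase of box H/ACA particles. The lowest were Rrn3 (-1.0) and Taf1a (-0.79), where 1 cell held 34.4% and 38.7% of the reads. The 10 chaperone and import genes tested gave a median of 1.06, with 8 higher and 5 by 2-fold. Grwd1, a chaperone of Rpl3, had 4 and 1229 reads (5.23), of which 1 cell held 45.3%, and the importin Ipo5 stood at 3.23. The lowest was Aar2 at -1.94, a factor of spliceosome assembly with 22.3% of its reads in 1 cell, followed by Tnpo1 at -0.53. Of 77 mitochondrial ribosomal protein genes tested, 67 were higher and 22 by 2-fold, with a median of 0.61 and a range from -0.84 (Mrpl33) to 2.70 (Mrps27, with reads in 2 and 16 cells). For all 12460 genes the background was 58.9% higher and 21.7% by 2-fold. The differences between these lists and the members were not tested.

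The start regions of the members were searched for runs of C and T, the kind of letters a TOP tract consists of. RefSeq promoter sequences of the GRCm38.p6 build matched 56 of the 76 members. An unbroken run of at least 8 C or T on the gene strand reached within 15 bases of the RefSeq start in 29 of 56 members, or 51.8%, against 20.0% of 27025 genes. The run covered the first base of the RefSeq transcript in 16 of 56 members, or 28.6%, against 4.16% of genes, and elsewhere it lay before or after it. Searched on both strands from 250 bases before to 50 after the start, CCGGAAG was present in 41.1% of members and 9.93% of genes, AAGATGG in 16.1% and 7.28%, and TATAAA in 10.7% and 15.7%. Below are 40 bases before and 20 after the start, with the longest run of C and T near the start in capitals, for 3 members with such a run and for Rps3, whose longest run was 3 bases in this table.

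Rpl4: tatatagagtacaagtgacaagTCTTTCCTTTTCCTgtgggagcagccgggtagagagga
Rps9: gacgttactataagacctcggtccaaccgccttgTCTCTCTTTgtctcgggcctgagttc
Rplp2: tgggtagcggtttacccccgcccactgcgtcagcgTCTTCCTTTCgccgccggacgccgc
Rps3: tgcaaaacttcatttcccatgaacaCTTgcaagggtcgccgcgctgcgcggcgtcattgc

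They lie at chr9:64173347-64173406 on the plus strand (Rpl4), chr7:3704001-3704060 on the plus strand (Rps9), chr7:141447611-141447670 on the plus strand (Rplp2) and chr7:99483690-99483749 on the minus strand (Rps3). The runs are 14, 9, 10 and 3 bases long, and that of Rpl4 ends before the RefSeq start. Rpl4 and Rplp2 were higher in the CD34-positive gate and Rps9 lower on gene reads, so members with a run near the start stood on both sides. A match describes letters in the sequence and not a site in use.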

How the data were processed

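RNA of single basophils was measured in 94 wells. The authors deposited 1 table of whole read counts per gene, not normalized; per the submitters' processing notes, GSNAP, HTSeq 0.5.3p3 and mm10 were used, and the annotation and strand setting are not given in the sources used here. Of all reads, 32.4% were assigned to genes, 7.68% were ambiguous, and the category for several alignments held 0%. Identifiers were named for 45143 of 46078. Cells with at least 50000 gene reads, 1000 genes, under 20% mitochondrial and under 50% ERCC reads were kept (92). Reads were summed per gate and scaled to gene or ERCC reads with a pseudocount of 1 CPM. Counting intervals are exact Poisson at 95%, and precision follows the reads given. Because each gate is 1 sample, no test was run. The fold code was tested on simulated data. Members, lists and the naming rule (the 5 at each end by fold, level per coding length and share of member reads, and listed genes) were chosen with earlier results of these data known. TMM factors came from edgeR 4.0.16 and pooled size factors from scran 1.30.0 in R 4.3.3; all else ran in Python 3.11.15 (scipy 1.17.1, numpy 2.4.6, pandas 2.3.3). Alternatives covered cell filter, scaling, pseudocount, pseudogene reads and single cells. Some genes are not reported here singly, though sums and counts include them.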

Additional observations from a re-analysis of the deposited data

Results flagged for a closer look

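Reads on named ribosomal protein pseudogenes lay outside the members and were found in every kept cell. Over 266 pseudogenes they made up 0.122% of CD34-negative and 0.180% of CD34-positive gene reads. From cell to cell they followed the members, with a Spearman's rho of 0.798 over 46 CD34-negative and 0.955 over 46 CD34-positive cells. Both sides are shares of the same gene reads, and a parent and its pseudogene can differ by single bases only. How many of the pseudogene reads come from parent mRNA was not tested. The cells left out by the filter also held member reads. CD34-negative cell 20 had a member share of 0.879% (216 reads in 19 members) and CD34-positive cell 3 a share of 1.02% (322 reads in 43 members), both inside the range of the kept cells of their gate.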

How the results depend on the processing

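No paired analysis was possible because a cell's title number marks no animal or shared batch that the labels name. Whether cells of equal number share an animal or a batch was not tested. The median member log2 fold of 0.54 kept its sign under every alternative run. Scaled by scran it was 0.32 and by TMM 0.34, and it was 0.63 without granule proteases, 1.46 with ERCC reads, 0.42 with a pseudocount of 10 CPM, 0.46 for the 10 members with at least 50% own windows and 0.67 for the 29 with none; the last 2 were chosen after seeing the data. The count of members higher by 2-fold, 13, was 68 with ERCC reads and 4 with a pseudocount of 10 CPM. The count lower by 2-fold was 1 in cells numbered 7 to 42. The median per ERCC read was 1.59 in cells numbered 7 to 42. The median pairwise correlation in CD34-positive cells was 0.56 for the 10 best-resolved members. Leaving out each cell in turn gave 0.50 to 0.60 for the median log2 fold, 12 to 14 members higher by 2-fold and 0 lower, 67 to 71 members higher, 1.42 to 1.53 for the median per ERCC read with 66 to 69 by 2-fold, 1.47 to 1.51 and 0.44 to 0.52 for the log2 ratios of medians per ERCC read and of shares, and 0.08 to 0.11 and 0.24 to 0.27 for the median pairwise correlations. The rho of member share and the list with elongation factors ran from 0.481 to 0.569 in CD34-negative and from 0.735 to 0.787 in CD34-positive cells.

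Of 1095 values of 73 single members, 27 changed sign, in 11 members. With ERCC reads Rps9 was at 0.80, Rps6 at 0.80, Rpl28 at 0.56, Rps29 at 0.45 and Rpl24 at 0.39. With scran and TMM factors Rps14 was at -0.039 and -0.019, Rpl7 at -0.15 and -0.13, Rpl37a at -0.079 and -0.060, Rpl5 at -0.082 and -0.064, and Rpl13a at -0.22 and -0.20. Without the cell with most reads Rps6 was at 0.38, Rpl28 at 0.68, Rps29 at 0.057 and Rpl24 at 0.031. By mean per-cell CPM Rpl5 was at -0.070, Rpl27 at -0.21 and Rpl24 at 0.034. With pseudogene reads added Rps6 was at 0.17 and Rpl28 at 0.28. In cells numbered 7 to 42 Rps9 was at 0.0022. Rps6 was at 0.045 without granule proteases, and Rpl13a at -0.018 without CD34-negative cells 25 and 36. Beyond the arithmetic of each setting, the cause was not tested. In 15 of the 76 members 1 cell held over 15% of the reads, and what sets this was not tested. Depth limits the counting intervals, which are widest for members with few reads.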
